A study of Mus musculus with 8 samples.

Results

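The 10 genes described here encode the core machinery that removes the poly(A) tail and the cap of an mRNA and then digests it from the 5′ end. They were chosen by name, as Ensembl identifiers with the mouse symbols Dcp1a, Dcp2, Xrn1, Lsm14a, Ddx6, Edc3, Edc4, Cnot1, Cnot7 and Pan3. All 10 were found among the 39017 genes of the count table, and all 10 passed the filter on low counts, as did 18952 genes in all. Poly(A) RNA was sequenced from mouse embryonic fibroblasts (E13.5), in 4 groups of 2 biological replicates. Control total and knockout total libraries came from unstressed cells. Control granule and knockout granule libraries were made after an arsenite stress (500 µM, 30 min), from stress granules enriched by centrifugation. Mettl3 encodes the enzyme that makes N6-methyladenosine (m6A) in mRNA. Knockout cells lost it through Cre, activated by 4-hydroxytamoxifen at 500 nM over 48 h. Loss of the protein and of m6A was checked after 7 days, and cells were collected on the day after. The labels do not say which promoter drives Cre, whether control cells received the drug, or from how many embryos or lines the replicates came, so p-values measure only the spread between these libraries.

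Processing bodies are cytoplasmic assemblies of mRNA and decay enzymes that exist in unstressed cells and stand next to stress granules under arsenite. Decay usually begins with removal of the poly(A) tail by the PAN2-PAN3 and CCR4-NOT complexes. The cap is then removed by DCP2 with its partners DCP1A, EDC3 and EDC4, and the body of the mRNA is digested by XRN1. DDX6, a DEAD-box helicase, and LSM14A link translational repression to decapping and are needed for these bodies to form. Transcripts that carry m6A can be brought to CCR4-NOT by the reader YTHDF2. The measurements below are of the mRNAs that encode these proteins, not of the proteins or of the bodies.

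The transcripts of these genes were mostly long and low in GC. In the GENCODE M21 annotation of GRCm38, the longest protein-coding transcript ran from 2944 bases for Lsm14a to 10256 bases for Xrn1, against a median of 3026 over the 15381 protein-coding genes tested. Only Lsm14a and Cnot7, at 2982 bases, lay below that median. GC content was lowest in Cnot7, at 40.7%, and highest in Edc3 and Edc4, at 51.6% and 55.5%, the members above the median of 50.4%. The part after the coding sequence was 7243 bases long in Dcp2 and 366 in Edc4. The sequence GGACT, a form of the motif in which METTL3 modifies the A, was searched on the sense strand of these transcripts. It occurred between 1 time, in Dcp1a, and 11 times, in Cnot1, where all 11 lay in the coding sequence. Per kb this was 0.18 and 1.31, against a median of 1.06, and 91.8% of all tested coding genes hold the motif at least 1 time. The occurrence nearest the stop codon is shown for the 5 members with the lowest adjusted p for a genotype difference in granule to total ratio, with the motif in capitals and 12 bases of mRNA on each side. They show that the motif stands in different parts of these mRNAs, and m6A itself was not measured in these data.
Cnot1, coding sequence, chr8:95723385-95723413, minus strand: tgctctacgtagGGACTcaggctatcgca
Ddx6, 3′ UTR, chr9:44637078-44637106, plus strand: gggccggaaggtGGACTagtgatggcagc
Dcp1a, 3′ UTR, chr14:30525926-30525954, plus strand: caggctccgtccGGACTgtccacagctag
Lsm14a, 3′ UTR, chr7:34345120-34345148, minus strand: tttgtactgtttGGACTaaagtgaagatt
Cnot7, coding sequence, chr8:40500879-40500907, minus strand: catgtatgctcaGGACTctatagagctac
Counted from the first base of the stop codon, the A of the motif lay at -459 in Cnot1 and -524 in Cnot7. It lay at 613 in Ddx6, 860 in Lsm14a and 2636 in Dcp1a.

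Library totals ran from 67257220 to 123508539 counts. The 10 members together took 0.0692% to 0.118% of them, and the lowest count of any member in any library was 383, for Xrn1 in control total replicate 1. Levels are given as CPM, counts scaled to a common library size with trimmed mean of M values (TMM) factors. Mettl3, the check of the labels, stood at 25.4 and 24.9 CPM in total RNA of control cells and at 6.0 and 7.35 CPM in that of knockout cells (log2 -1.91, SE 0.27, edgeR adjusted p = 0.0345), with 15.7, 15.4, 5.56 and 6.38 CPM in the granule libraries in the same order. Of 10 fibroblast markers 8 averaged at least 5 CPM, and their sum was 6345 to 9310 CPM. The summed level of 6 epithelial markers was 559 to 715 CPM in granule libraries, 368 and 253 CPM in control total and 67.0 and 107 CPM in knockout total libraries, so it moved with fraction and, in total RNA, with genotype. Most of it was Krt18, at up to 679 CPM, while Epcam and Cdh1 never passed 1.67 and 2.19 CPM and none of the 6 was at 0. The sums of 5 blood markers, 53.9 to 102 CPM in granule and 90.6 to 106 CPM in total libraries, overlapped, and those of the endothelial, neuronal and muscle lists reached at most 18.5 CPM. The part of these cells in the results was not tested, and in bulk RNA fewer cells of a type and less RNA per cell cannot be told apart. Stress and fractionation changed together in this design, so their effects on a granule to total ratio cannot be told apart either.

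Replicates of the granule groups were close for these genes and those of the total groups were not. The higher replicate exceeded the lower by 1.02 to 1.24 times in control granule and 1.003 to 1.22 times in knockout granule libraries. In control total libraries the range was 1.25 to 1.99 times, and in knockout total libraries it was 1.01 times for Dcp1a to 3.58 times for Cnot7. Control total replicate 1 was the lowest of all 8 libraries for 6 members, and knockout total replicate 1 was the highest for 6. For Edc3 and Edc4 the positions were exchanged, with control total replicate 1 highest and knockout total replicate 1 lowest. The replicate difference followed GC content over the 10 members, with a Spearman rho of 0.77 for the total RNA of control cells and -0.71 for that of knockout cells, given as a description since the members share the libraries. Over 10059 coding genes of at least 5 CPM the same relations were 0.767 and -0.738. The median of the members, centred over the 8 libraries on the log2 scale, was -0.83 in control total replicate 1 and 0.54 in knockout total replicate 1, and between -0.23 and 0.32 in the other 6. The main results that use total RNA are therefore also given without these libraries. Such a fit leaves a group with 1 library, which is then assumed to vary like the others. Effect sizes are therefore the values to read from it. Counts of members called in such fits rest on that assumption and are not taken as evidence of a difference.

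**Figure D1:**
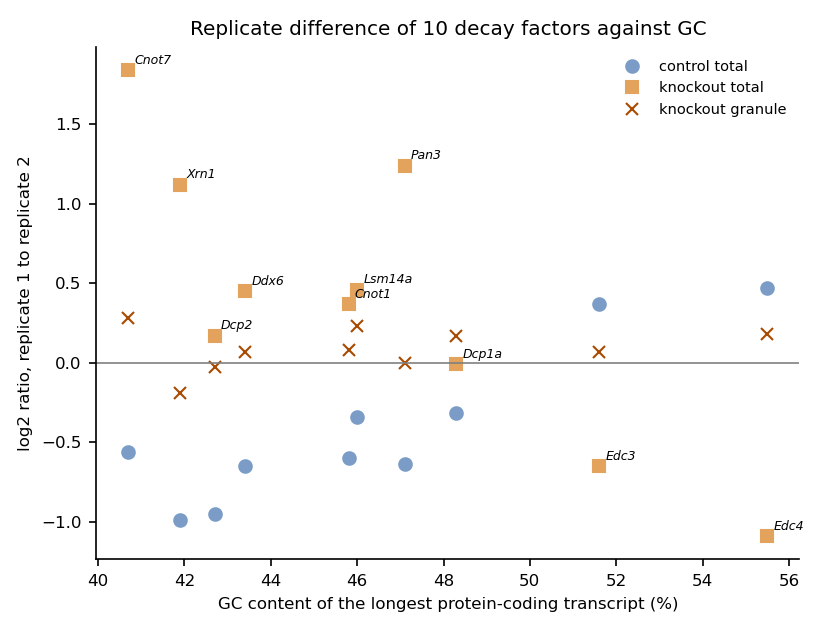
Replicate difference of the 10 decay factor mRNAs, as the log2 ratio of replicate 1 to replicate 2 on the y axis, against the GC content of the longest protein-coding transcript in percent on the x axis. Circles are control total, squares knockout total and crosses knockout granule libraries; the squares fall from 1.84 for Cnot7 to -1.09 for Edc4, the circles rise with GC, and the crosses stay between -0.19 and 0.28.

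Levels were compared between genes per kb of exon, as CPM per kb. In control total RNA the most abundant member was Edc4, the scaffold of the decapping complex, at 31.5 ± 7.21 CPM per kb (SD, n = 2). Ddx6 at 16.7 ± 5.27, Lsm14a at 12.03 ± 2.02, Cnot1 at 11.4 ± 3.31 and Edc3 at 10.6 ± 1.90 CPM per kb followed, and each overlapped its neighbour in this order. Dcp2 and Cnot7, at 4.202 ± 1.89 and 3.57 ± 0.962, overlapped each other, as did Dcp1a and Pan3, at 2.34 ± 0.366 and 2.11 ± 0.651. Xrn1 was lowest, at 0.453 ± 0.212 CPM per kb, and overlapped no other member. In control granule libraries Ddx6 stood first at 42.5 ± 2.40 CPM per kb, Edc4 next at 21.2 ± 0.976, and no neighbours overlapped. Ddx6 also stood first in knockout total and knockout granule libraries, at 34.0 ± 7.43 and 29.8 ± 1.04 CPM per kb, and Xrn1 was last in all 4 groups. Per kb of the longest coding transcript in place of all exons, Edc4 and Xrn1 kept the ends of the order in control total RNA, and Ddx6 moved from rank 2 to rank 4.

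**Figure D2:**
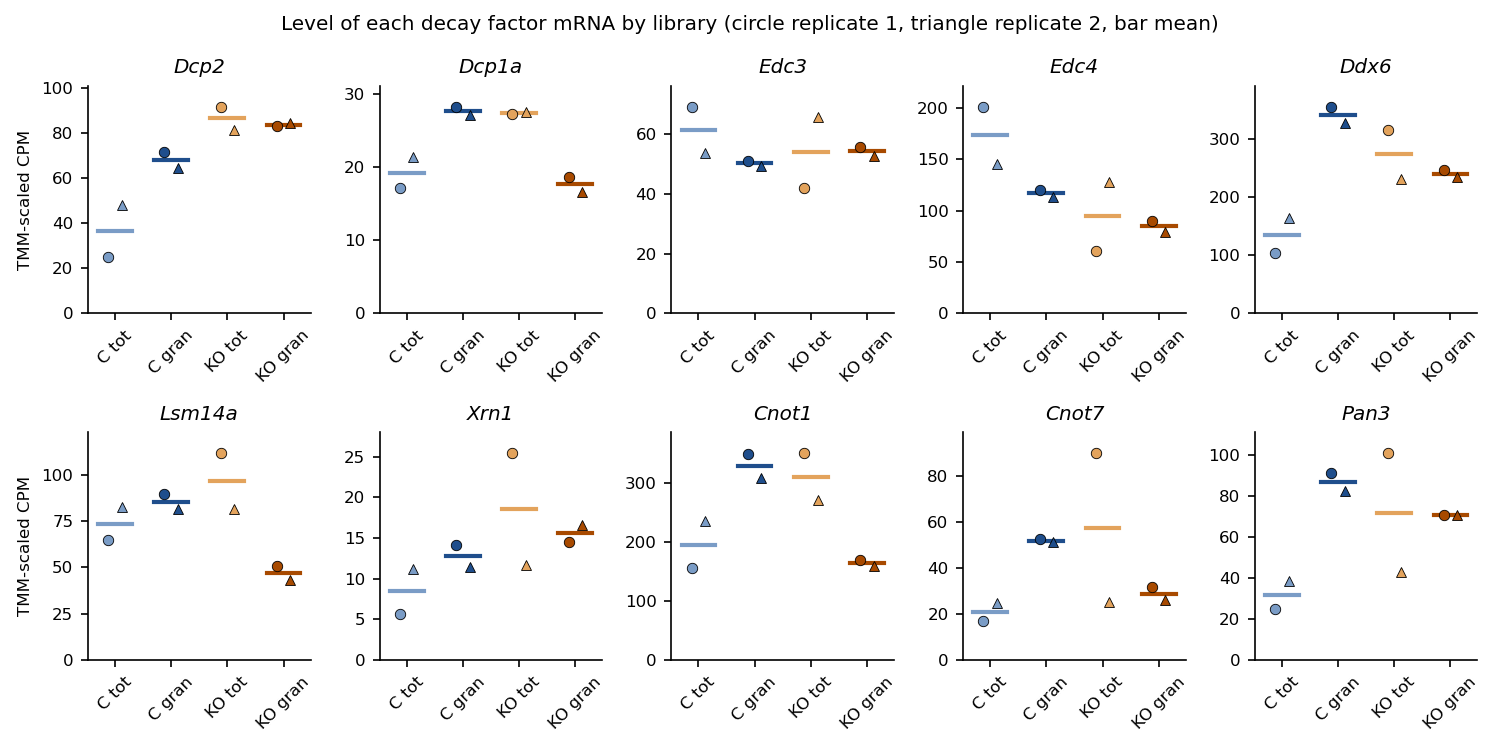
Level of each member in the 8 libraries, in CPM scaled by trimmed mean of M values on a linear y axis from 0, with the groups control total, control granule, knockout total and knockout granule along the x axis. Circles are replicate 1, triangles replicate 2 and bars the mean of 2; granule replicates lie close together, while Cnot7 stands at 89.8 and 25.1 CPM in knockout total RNA.

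The granule to total comparison in control cells set granules of arsenite-treated cells against total RNA of unstressed cells, so it does not isolate enrichment in granules. Ddx6 rose, 7 members had higher and 2 had lower estimates that did not pass the test, which was edgeR's quasi-likelihood test with Benjamini-Hochberg adjustment over all genes at 0.05. The single call stands against 10.1% of all genes called, 5.89% higher and 4.17% lower (4.02% and 6.64% with upper-quartile factors). The median log2 difference over the members was 0.68, and over all genes tested -0.06. It was 0.43 without control total replicate 1, 1.17 without control total replicate 2, and 0.20 with either the GC or the length trend of each library removed. Without knockout total replicate 1, which is not in this comparison but enters the shared estimate of spread, 7 members were called, 6 of them higher, against 40.6% of all genes. There were again 7 without knockout total replicate 2, against 39.9%. Without any 1 of the other 6 libraries none was called by edgeR, with 1 to 4 at an unadjusted p under 0.05.

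Among the decapping factors, the catalytic subunit Dcp2 stood at 24.9 and 48.2 CPM in control total and at 71.4 and 64.3 CPM in control granule libraries. All granule values lay above all total values, and the log2 difference was 0.89 (SE 0.33, edgeR adjusted p = 0.12). Its activator Dcp1a, at 17.1 and 21.4 CPM in total and 28.3 and 27.1 CPM in granule libraries, did not overlap either, with a log2 difference of 0.52 (SE 0.25, edgeR adjusted p = 0.207). Edc3, an enhancer of decapping, went the other way, from 69.2 and 53.6 CPM to 51.0 and 49.5 CPM, without overlap (log2 -0.29, SE 0.29, edgeR adjusted p = 0.541). Edc4 had the same sign, from 201 and 145 CPM to 120.5 and 113 CPM (log2 -0.57, SE 0.37, edgeR adjusted p = 0.341). Non-overlap of this kind was common, at 35.2% of all genes upward and 37.3% downward.

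Ddx6 was measured at 104 and 164 CPM in control total and at 355 and 328 CPM in control granule libraries. Both granule libraries lay above both total libraries, and the log2 difference of 1.35 (SE 0.30, edgeR adjusted p = 0.0337) was the call in this group. Its partner Lsm14a, at 65.0 and 82.6 against 89.8 and 81.6 CPM, overlapped between fractions (log2 0.22, SE 0.28, edgeR adjusted p = 0.632). Xrn1, the 5′ to 3′ exonuclease, stood at 5.63 and 11.2 CPM in total and 14.1 and 11.4 CPM in granule libraries, a difference of 0.60 (SE 0.45, edgeR adjusted p = 0.407). With the GC trend of each library removed, the estimates of Lsm14a and Xrn1 were -0.14 and -0.28, while that of Ddx6 was 0.67 (edgeR adjusted p = 0.0372).

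Among the deadenylation factors, the CCR4-NOT scaffold Cnot1 stood at 155 and 236 CPM in control total and 351 and 309 CPM in control granule libraries (log2 0.75, SE 0.29, edgeR adjusted p = 0.125). Cnot7, a catalytic subunit of the same complex, stood at 16.8 and 24.7 against 52.3 and 51.2 CPM (log2 1.32, SE 0.54, edgeR adjusted p = 0.144). Pan3, which recruits the PAN2 nuclease to poly(A), had the largest estimate of the members, from 24.7 and 38.4 to 91.3 and 82.7 CPM (log2 1.46, SE 0.42, edgeR adjusted p = 0.0638). None of these 3 genes overlapped between the fractions. In the fit of only these 4 libraries, 6 members passed, Dcp2, Ddx6, Cnot1, Cnot7 and Pan3 upward and Edc4 downward, against 42.4% of all genes. With the GC trend removed, Ddx6 and Pan3 passed, against 24.0% of all genes, Pan3 at 1.23 (edgeR adjusted p = 0.0167), and Cnot7 came to 0.27.

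The same ratio was measured in knockout cells. Lsm14a fell, none rose, 8 others had estimates below 0 that did not pass, and Edc3 stood at 0.01 (SE 0.29). The call stands against 17.6% of all genes called, 9.17% higher and 8.47% lower. The median over the members was -0.22, against 0.04 over all genes, and -0.13 without knockout total replicate 1 and -0.70 without replicate 2. Lsm14a went from 112 and 81.6 CPM in knockout total to 50.7 and 43.2 CPM in knockout granule libraries, without overlap, a log2 difference of -1.04 (SE 0.28, edgeR adjusted p = 0.0377). The same direction without overlap was seen in Cnot1, from 351 and 272 to 169 and 160 CPM (log2 -0.92, SE 0.29, edgeR adjusted p = 0.0614). It was also seen in Dcp1a, from 27.3 and 27.5 to 18.7 and 16.6 CPM (log2 -0.64, SE 0.25, edgeR adjusted p = 0.119). These 3 genes were the members without overlap, where 26.5% of all genes lay apart downward.

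For the remaining members the 2 knockout total libraries lay on either side of the granule libraries or overlapped them. Cnot7 stood at 89.8 and 25.1 CPM in total and 31.4 and 25.8 CPM in granule libraries (log2 -1.01, SE 0.53, edgeR adjusted p = 0.223). Pan3 stood at 101 and 42.8 against 70.9 and 70.7 CPM, and Xrn1 at 25.5 and 11.7 against 14.5 and 16.6 CPM. Edc4 stood at 60.2 and 128 against 90.0 and 79.3 CPM, and Edc3 at 42.0 and 65.9 against 55.6 and 52.8 CPM, both with the lower total value in replicate 1. Without knockout total replicate 1, the estimates were 0.18 for Cnot7, 0.40 for Xrn1 and -0.61 for Edc4. Pan3 was then at 0.72. Lsm14a, Cnot1 and Dcp1a kept their direction in that fit, at -0.80, -0.73 and -0.65. Leaving out knockout total replicate 2, these 3 genes were at -1.38, -1.22 and -0.76. With the GC trend removed 3 passed, all lower, against 35.5%, among them Lsm14a at -0.81 and Cnot1 at -0.70 (edgeR adjusted p = 0.00735 and 0.0221). The median over the members was -0.31 without knockout granule replicate 1 and -0.25 without knockout granule replicate 2.

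**Figure D3:**
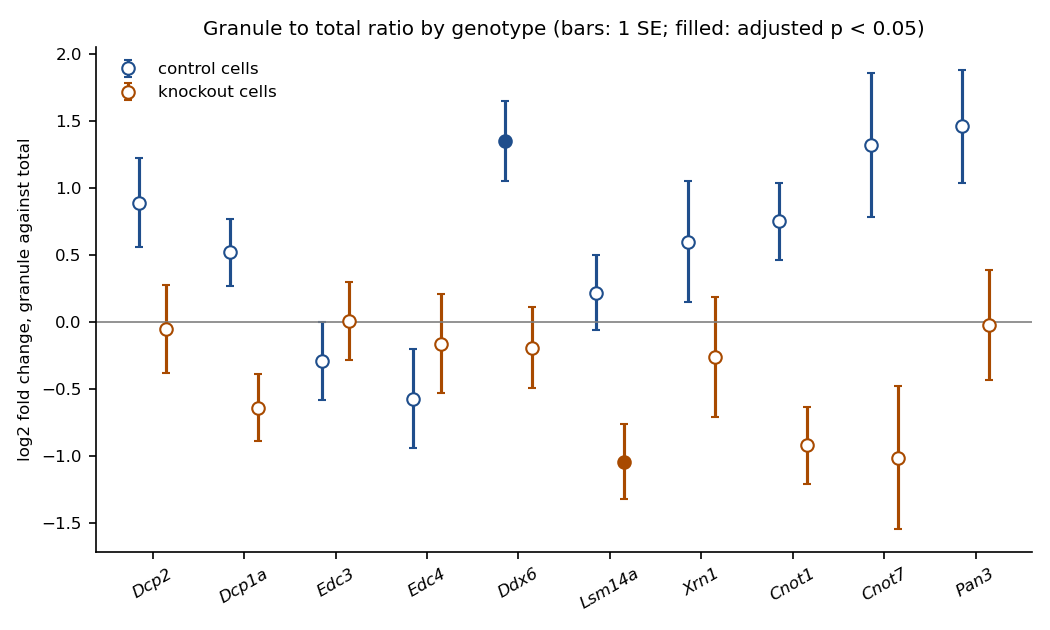
Log2 fold change of granule against total RNA for each member on the y axis, in control cells (blue) and knockout cells (orange), with bars of 1 SE and filled symbols at an adjusted p under 0.05. Ddx6 in control cells at 1.35 and Lsm14a in knockout cells at -1.04 are filled, and for 8 of the 10 genes the orange point lies below the blue one.

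The knockout was next compared with control in unstressed total RNA. No member was called by edgeR, with 7 at an unadjusted p under 0.05, and DESeq2 called 4, all higher. Over all genes 0.412% were called by edgeR and 14.8% by DESeq2, both at an adjusted p under 0.05. The share of all genes at an unadjusted p under 0.05 is not given here or below. Counts at that threshold therefore cannot be read as particular to these genes. The estimates were above 0 for 8 members, with a median of 0.85 against 0.02 over all genes. The summed level of the epithelial markers, most of it Krt18, stood at 67.0 and 107 CPM in knockout against 368 and 253 CPM in control libraries. It also lay apart in this comparison, and the part of these markers in it was not tested. Dcp2 had the lowest adjusted p, from 24.9 and 48.2 CPM in control RNA to 91.7 and 81.3 CPM in knockout total RNA (log2 1.24, SE 0.34, edgeR adjusted p = 0.136). Ddx6 went from 104 and 164 to 315 and 231 CPM (log2 1.02, SE 0.30, edgeR adjusted p = 0.143). Edc4 was lower in both knockout libraries, with 60.2 and 128 against 201 and 145 CPM (log2 -0.88, SE 0.37, edgeR adjusted p = 0.197). For Cnot7 the difference of 1.47 (SE 0.54, edgeR adjusted p = 0.166) had knockout libraries at 89.8 and 25.1 CPM, the lower of them beside the control value of 24.7 CPM.

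The size of this difference depended on which total library of either genotype was used. The median over the members was 0.56 without control total replicate 1 and 1.27 without control total replicate 2. Without knockout total replicate 1 the median over the members was 0.46, and Dcp2 was at 1.15. Cnot7 was then at 0.27 and Pan3 at 0.44. Leaving out knockout total replicate 2, the median was 1.14, with 8 members above 0 and Edc4 at -1.42. Dcp2 gave 1.15 in the former and 1.43 in the latter fit. With the GC trend removed the median was 0.35 and none passed by edgeR, where 5.71% of all genes passed. At an unadjusted p under 0.05 there were 3 members.

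In the granule fraction replicates were close, and non-overlap between genotypes was common over all genes. Every member had 2 knockout granule libraries on one side of both control granule libraries, 7 lower and 3 higher, while 36.6% of all genes lay apart downward and 40.4% upward. None passed in the model of all 8 libraries by edgeR, with 3 at an unadjusted p under 0.05, and DESeq2 called 1, Cnot1. Of all genes edgeR called 9.45%, 5.79% higher and 3.66% lower, and DESeq2 16.1%; with upper-quartile factors edgeR called 7% higher and 2.57% lower. Without knockout total replicate 1, 4 members passed, and without replicate 2, 6, all lower, against 39.0% and 38.9% of all genes. The median log2 difference was -0.49 over the members and 0.08 over all genes. In the fit of only these 4 granule libraries 8 members passed, 7 lower and 1 higher, against 57.3% of all genes, 28.2% lower and 29.1% higher.

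Cnot1 had the lowest estimate, from 351 and 309 CPM in control to 169 and 160 CPM in knockout granules. Its log2 difference was -1.0 (SE 0.29, edgeR adjusted p = 0.0671) in the model of all libraries and -0.99 (edgeR adjusted p = 4.89e-06) in that of the 4 granule libraries. Lsm14a went from 89.8 and 81.6 to 50.7 and 43.2 CPM, at -0.87 (SE 0.28, edgeR adjusted p = 0.0873) and -0.86 (edgeR adjusted p = 1.16e-05) in the same models. Cnot7 went from 52.3 and 51.2 to 31.4 and 25.8 CPM, at -0.85 (SE 0.53, edgeR adjusted p = 0.329) and -0.85 (edgeR adjusted p = 1.74e-05). Dcp1a was at -0.65 (SE 0.25, edgeR adjusted p = 0.142). Ddx6, Edc4 and Pan3 had smaller differences of -0.51, -0.46 and -0.30. Dcp2 was the member that passed upward in the fit of 4 libraries, from 71.4 and 64.3 to 83.0 and 84.5 CPM (log2 0.31, edgeR adjusted p = 0.0168). Xrn1 at 0.30 and Edc3 at 0.12 did not pass there (edgeR adjusted p = 0.0749 and 0.315). In the model of all libraries Dcp2 was at 0.30 (SE 0.33, edgeR adjusted p = 0.59) and did not pass. Xrn1 and Edc3 were at 0.29 and 0.11 in that model (SE 0.45 and 0.29, edgeR adjusted p = 0.717 and 0.838). With the GC trend removed, Cnot1 at -0.82 and Lsm14a at -0.69 passed (edgeR adjusted p = 0.0156 and 0.0181), against 26.2% of all genes.

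A difference between genotypes in the granule to total ratio was tested with an interaction term, the knockout ratio minus the control ratio on the log2 scale. No member passed by edgeR, with 6 at an unadjusted p under 0.05, and DESeq2 called 5, all with a lower ratio in knockout cells. Over all genes 0.517% were called by edgeR and 15.5% by DESeq2. Estimates were below 0 for 8 members, and the median was -1.21 over the members and 0.09 over all genes. Leaving out 1 total library at a time gave medians of -0.95 (knockout replicate 1), -1.06 (control replicate 1), -1.56 (knockout replicate 2) and -1.60 (control replicate 2). The estimate was -2.32 for Cnot7 (SE 0.75, edgeR adjusted p = 0.125), -1.67 for Cnot1 (SE 0.41, edgeR adjusted p = 0.0919) and -1.53 for Ddx6 (SE 0.42, edgeR adjusted p = 0.104). Pan3 was at -1.48, Lsm14a at -1.26, Dcp1a at -1.16, Dcp2 at -0.94 and Xrn1 at -0.85. Edc3 and Edc4, the members of highest GC content, were at 0.30 and 0.42. The 4 comparisons above share libraries with each other and with this one.

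Without knockout total replicate 1, 5 members passed the interaction test, all lower, against 10.3% of all genes called lower and 18.6% called in either direction. They were Cnot1 at -1.49, Ddx6 at -1.31, Dcp1a at -1.18, Cnot7 at -1.14 and Lsm14a at -1.03. Knockout total RNA has 1 library in this fit and in the next, so their calls are not evidence of a difference. When knockout total replicate 2 was left out, 9 members passed, 8 lower and Edc4 higher at 0.89, against 46.4% of all genes. The estimate of Cnot7 was then -3.14, and that of Dcp1a -1.33, against -1.18 for Dcp1a and -1.14 for Cnot7 without replicate 1. With the GC trend removed, the estimates shrank to -1.08 for Cnot1 (edgeR adjusted p = 0.0406), the single call, and to -0.13 for Dcp2. The median was then -0.69, and 11.2% of all genes were called. Without control granule replicate 1 the median over the members was -1.30, and without control granule replicate 2 it was -1.39. It was -1.43 without knockout granule replicate 1 and -1.12 without knockout granule replicate 2.

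**Figure D4:**
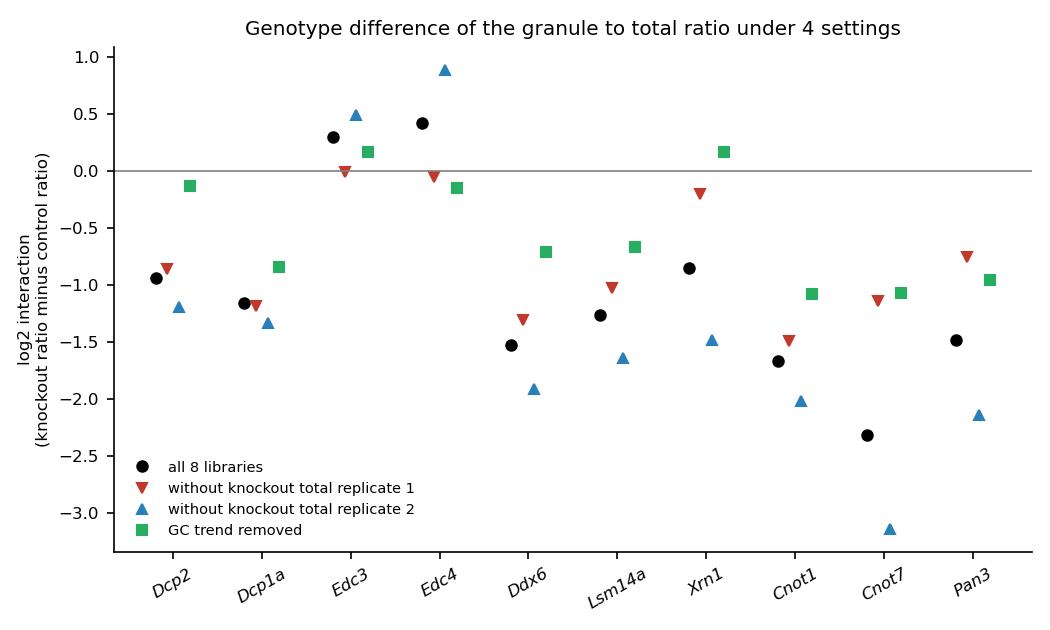
Interaction estimate of each member on the log2 scale on the y axis, the granule to total ratio of knockout cells minus that of control cells, with all 8 libraries, without each knockout total library, and with the GC trend of each library removed. Cnot1, Ddx6, Dcp1a, Cnot7, Lsm14a, Pan3 and Dcp2 lie below 0 in all 4 settings, while Xrn1, Edc3 and Edc4 lie on both sides.

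A wider list of 71 decay genes, of which 70 were in the table and tested, was measured beside these members. In control cells 7 of the 70 rose in granules and none fell by edgeR, where 5.89% of all genes were called higher and 4.17% lower, and 20 of the 70 had an unadjusted p under 0.05. DESeq2 called 10 higher and 1 lower, where it called 19.4% of all genes in either direction. The median was 0.34, and 0.11 with upper-quartile factors. Those with the lowest adjusted p were Tnrc6b and Tnrc6a, which encode the scaffolds that join Argonaute to CCR4-NOT, and Cnot6, a nuclease of CCR4-NOT. Tnrc6b rose from 40.0 and 52.1 to 246 and 223 CPM (log2 2.35, SE 0.29, edgeR adjusted p = 0.00737). Tnrc6a rose by 2.40 (SE 0.37, edgeR adjusted p = 0.0124) and Cnot6 by 2.09 (SE 0.39, edgeR adjusted p = 0.0213). These estimates were 2.35, 2.41 and 2.10 without knockout total replicate 1. By role, 3 of 18 deadenylation, 3 of 9 microRNA silencing, 1 of 8 nonsense-mediated decay, 0 of 17 decapping and 0 of 18 exonuclease and exosome genes rose, the last 2 lists with 3 genes each at an unadjusted p under 0.05. The counts of genes that rose stand against the 5.89% of all genes called higher, and differences between the roles were not tested.

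In knockout cells 5 of the 70 rose and 4 fell, where 9.17% of all genes were called higher and 8.47% lower, and the median was -0.19. In the fit without knockout total replicate 1 the median was -0.14. Upf3a, Tnrc6b and Upf2, the first and last of them in nonsense-mediated decay, rose by 1.57, 1.72 and 1.95 (SE 0.24, 0.29 and 0.45; edgeR adjusted p = 0.00665, 0.00839 and 0.026), and stood at 1.67, 1.99 and 2.76 without knockout total replicate 1. Exosc1, an exosome subunit, fell by 1.89 and Cnot9, a CCR4-NOT subunit, fell by 1.32 (SE 0.39 and 0.29, edgeR adjusted p = 0.0175 and 0.0218), and without that library by 1.22 and 0.94. Pnrc2, a decapping cofactor, also passed at -2.91 (SE 0.74, edgeR adjusted p = 0.0336), with knockout total libraries at 327 and 52.5 CPM. It was at -1.06 without replicate 1. In unstressed total RNA none of the 70 passed between genotypes by edgeR, with 27 at an unadjusted p under 0.05 and 14 called by DESeq2, which called 14.8% of all genes. With knockout total replicate 1 left out, 1 of the 70 passed upward, against 5.52% of all genes. In granules 1 of the 70 rose and 1 fell, against 5.79% and 3.66% of all genes. Dxo, which removes faulty caps, rose by 1.14 (SE 0.28, edgeR adjusted p = 0.0451), from 18.6 and 20.5 to 44.7 and 41.1 CPM. Tob1, an adaptor that brings CCR4-NOT to mRNA, fell by 1.16 there (SE 0.29, edgeR adjusted p = 0.047), from 49.8 and 46.1 to 22.9 and 20.0 CPM. None of the 70 passed the interaction test by edgeR, with 22 at an unadjusted p under 0.05 and 14 lower and 1 higher by DESeq2, which called 15.5% of all genes. The median was -0.45, against 0.09 over all genes. It was -0.37 without knockout total replicate 1, -0.84 without knockout total replicate 2, -0.73 without control total replicate 2 and -0.20 with upper-quartile factors. Estimates were below 0 for 53 of the 70, against 47.3% of all genes. When knockout total replicate 1 was left out, 51 were below 0, against 45.9%. The deadenylation list had a median interaction of -0.83, which was -0.43 without that library, and the difference from the other roles was not tested.

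**Figure D5:**
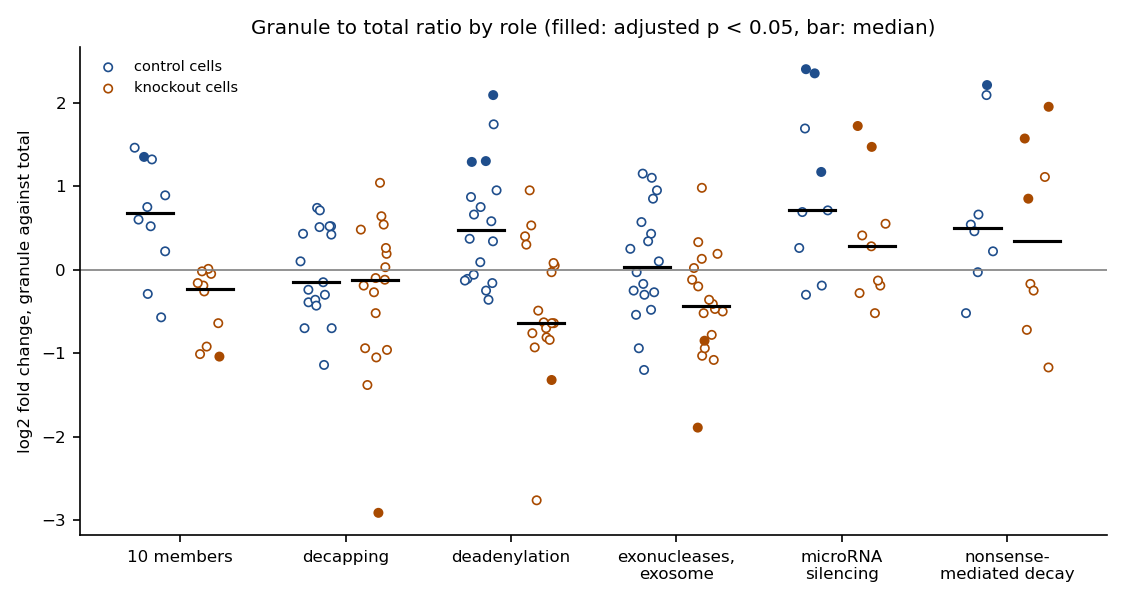
Log2 fold change of granule against total RNA on the y axis for the 10 members and for the wider list split by role along the x axis, in control cells (blue) and knockout cells (orange), 1 point per gene, filled at an adjusted p under 0.05, with the median as a bar. The median of the members goes from 0.68 to -0.22 between genotypes and that of the deadenylation list from 0.48 to -0.63; without knockout total replicate 1 the latter value was 0.04, and differences between lists were not tested.

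Partners and paralogues of members were compared after their values were seen. Pan2, the nuclease that works with Pan3, stood at 49.9 and 53.7 CPM in control total and 42.6 and 38.0 CPM in control granule libraries (log2 -0.36, SE 0.24, edgeR adjusted p = 0.341), where the estimate for Pan3 was 1.46. Its interaction was -0.40 (SE 0.34), against -1.48 for Pan3. Cnot8, the close paralogue of Cnot7, stayed between 59.8 and 77.1 CPM in all 8 libraries, with an interaction of -0.05 (SE 0.33). Cnot7 ranged over 5.35 times, from 16.8 to 89.8 CPM. Dcp1b, the paralogue of Dcp1a, was lower in granule libraries in both genotypes, at -1.14 and -1.05 (SE 0.31 in both, edgeR adjusted p = 0.0545 and 0.0516). Lsm14b stood at 0.51 in control and -0.12 in knockout cells (SE 0.24 in both, edgeR adjusted p = 0.206 and 0.764). The interactions of Pan2 and Cnot8 were -0.42 and -0.10 without knockout total replicate 1, and the knockout ratios of Dcp1b and Lsm14b were -0.79 and 0.05. None of the differences between a member and its partner was tested. In the wider list, the profiles over the 8 libraries nearest to the median profile of the members were those of Ago2, Lsm5 and Smg1, with mean absolute differences of 0.144, 0.162 and 0.17 on the log2 scale. Of all genes of at least 5 CPM, 0.81% were as near as Ago2 or nearer.

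Some counts can include reads of overlapping genes, and whether counting used strand is not given in the sources used here. Exons of Clk3, on the other strand, overlap 22.1% of the exonic bases of Edc3. Exons of Nrn1l, on the same strand, overlap 8.3% of those of Edc4, which counting by strand would not separate. The overlap was 7.4% for Lsm14a, 4.2% for Xrn1 and for Cnot7, 0.8% for Cnot1, and 0 for Dcp1a, Dcp2, Ddx6 and Pan3.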

How the data were processed

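Per the file headers, the deposited table gives whole-number counts for each Ensembl gene, with a separate column for every library. The submitters' processing notes name STAR, DESeq2 and GRCm38 (mm10); versions, counting program, strand setting and annotation release are not given in the sources used here. Columns were joined to samples by genotype, fraction and replicate number. Symbols, coordinates and transcripts came from GENCODE M21, which matched 37693 of 39017 identifiers. Exosc6, of the wider list, was not matched.

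Counts were fitted in R 4.3.3 with edgeR 4.0.16 (TMM scaling, filterByExpr over the 4 groups, robust quasi-likelihood fit, 1 mean per group, 4 residual degrees of freedom). Benjamini-Hochberg adjustment ran over 18952 genes, called under 0.05. Standard errors were derived from the F statistic. The fit was also run on simulated counts with some genes changed in knockout granule libraries. These counts held no replicate difference linked to GC, so that run does not bear on the comparisons with total RNA. Total counts of 67257220 to 123508539 per library put 3 counts at 0.0243 to 0.0446 CPM, far below every member. Alternatives used DESeq2 1.42.0, limma 3.58.1, other scalings and filters, lowess removal (span 0.3) of GC or length trends (15381 protein-coding genes), a replicate block and leaving out each library. Members, lists and tests were chosen with earlier results of these data known. Named genes are all 10 members, up to 3 called genes per direction and comparison of the wider list with the lowest adjusted p at a mean of at least 5 CPM, and the 3 profiles nearest to the members' median.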

Additional observations from a re-analysis of the deposited data

Results flagged for a closer look

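In 5 members every pairing of libraries went one way in 1 condition and the other way in the other, which drew attention to them. Of all genes tested, 14.6% lay apart in opposite directions in the granule to total ratios of the 2 genotypes, as 2 members did. Between genotypes 17.3% did so in total RNA and granules, as did 5 members. The difference itself did not pass the interaction test in any of them (edgeR adjusted p = 0.115 for Dcp1a, 0.104 for Ddx6, 0.0919 for Cnot1, 0.125 for Cnot7 and 0.167 for Pan3). Dcp1a was higher in granule than total libraries in control cells (log2 0.52) and lower in knockout cells (-0.64), and Cnot1 showed the same at 0.75 and -0.92. Between genotypes, Dcp1a was at 0.51 in total RNA and -0.65 in granules, and Cnot1 at 0.67 and -1.0. Ddx6 was at 1.02 and -0.51, Cnot7 at 1.47 and -0.85, and Pan3 at 1.19 and -0.30 in the same order. The granule values come from close replicates, while in total RNA the knockout replicates of Cnot7 and Pan3 differed by 3.58 and 2.36 times.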

How the results depend on the processing

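Counts of members called changed with the model, as did the share of all genes called, given in brackets. For granule against total in control cells, where 1 member was called (10.1%), the count was 2 with DESeq2 (19.4%) and with the GC trend removed (24.0%), 3 without the filter (13.2%), 6 with only the groups compared (42.4%), 7 with voom and quality weights (39.3%), and 0 with the replicate block (3.07%). For the same ratio in knockout cells, also 1 (17.6%), it was 2 with DESeq2 (22.0%) and with the length trend removed (21.4%), and 3 without the filter (17.0%) and with the GC trend removed (35.5%). It was 0 with library size alone (16.3%), voom (5.69%), the replicate block (10.0%) and only the groups compared (0%). For knockout against control in total RNA, where none was called (0.412%), it was 4 with DESeq2 (14.8%) and 5 without the filter (11.2%). In granules, also 0 (9.45%), it was 1 with DESeq2 (16.1%), without the filter (11.2%) and with the length trend removed (10.5%). It was 2 with the GC trend removed (26.2%), 6 with voom (55.2%) and 8 with only the groups compared (57.3%). For the interaction, 0 as fitted (0.517%), it was 5 with DESeq2 (15.5%) and without the filter (11.5%), and 1 with the GC trend removed (11.2%). Leaving out each library gave 0 to 7 and 0 to 6 for the ratios in control and knockout cells, 0 to 9 for total RNA, 0 to 6 for granules and 0 to 9 for the interaction. For these fits the share of all genes called is not given in brackets, and it ranged widely too. Members were called only in fits without a knockout total library, where that share was also highest in each comparison. The ranges therefore do not describe the members alone. A group left with 1 library is assumed to vary like the others. The causes were not tested.

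Of 990 member estimates under alternatives, 34 changed sign. In knockout cells, granule against total, Edc3 was at -0.02 with median-of-ratios factors, -0.03 with DESeq2, -0.09 without the filter and -0.06 with only the groups compared. Dcp2 was at 0.03 with library size alone, 0.02 with the filter at a mean of 5 CPM and 0.01 with the GC trend removed. Pan3 was at 0.09, 0.04 and 0.27 under these 3, 0.12 with voom, 0.01 with the replicate block and 0.09 with the length trend removed. In control cells Lsm14a was at -0.01 with upper-quartile factors and -0.14 with the GC trend removed, which also gave -0.28 for Xrn1. The GC trend removed gave -0.03 for Lsm14a in total RNA and 0.17 and -0.15 for the interactions of Xrn1 and Edc4. Leaving out libraries, the knockout ratio ranged from -1.78 to 0.18 for Cnot7, -0.26 to 0.03 for Dcp2, -0.52 to 0.05 for Ddx6, -0.29 to 0.24 for Edc3, -0.61 to 0.36 for Edc4, -0.64 to 0.72 for Pan3 and -0.84 to 0.40 for Xrn1. The interaction ranged from -0.01 to 0.49 for Edc3 and -0.05 to 0.89 for Edc4, and the difference in total RNA from -0.44 to 0.10 for Edc3.

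Upper-quartile factors moved the median of all genes from 0.09 to 0.33 in the interaction and from -0.06 to -0.29 in the control ratio. The members' interaction median less that of all genes was -1.30, and -0.67 with the GC trend removed, -0.88 with the length trend removed and -0.94 with the filter at a mean of 5 CPM. Same-numbered deviations correlated at -0.618 to 0.19 between groups. This cannot show whether replicate numbers pair the libraries, since the replicate difference in total RNA followed GC content, in opposite directions in the genotypes. The planned legacy quasi-likelihood fit is the default of the version used, so the fit with legacy off was added after seeing the data and changed no member count. The other length changed 30 of 40 levels per kb by more than 1 SD. Of the wider list's counts of calls, 99 of 198 moved by more than 1.5 times.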
